A study of Arabidopsis thaliana with 6 samples.

Results

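The genes described here encode Polycomb and trithorax proteins, histone demethylases, chromatin remodelers and transcription elongation factors of Arabidopsis thaliana. They are the 44 genes, of 27655 in the deposited table, whose identifiers belong to a list chosen for what the proteins do. All 44 were found, and all 44 passed the filter on low values used for testing. RNA-seq compared seedlings at 10 days of age, kept at 22 °C in long days (16 h light, 8 h dark), in 3 wild type (Col) libraries and 3 libraries from plants labelled h3.3ko;HTR5. The name joins a knockout of the histone variant H3.3 with HTR5, an H3.3 gene. The sources used here do not give the construct, its promoter, the number of independent lines or any allele beyond these names.

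Polycomb repressive complex 2 (PRC2) methylates histone H3 at lysine 27, and PRC1 proteins act with this mark to keep developmental genes silent. Trithorax proteins oppose this by methylating lysine 4 of H3, and JmjC demethylases remove the marks again. Remodelers of the SWI/SNF, CHD, ISWI, SWR1 and INO80 families use ATP to move, evict or exchange nucleosomes. FACT, SPT6 and the PAF1 complex travel with RNA polymerase II and handle histones during elongation. In Arabidopsis seedlings these systems are best known for the control of FLC, the floral repressor gene, and for keeping floral and embryonic programmes off.

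Levels are TPM, reads corrected for the length of the gene and for the total of the library. Libraries held 13792031 to 14498093 recovered reads, and single members had between 49 reads (SWC6) and 2721 reads (SYD) in a library. The label was checked first on the H3.3 genes. HTR8 RNA was nearly gone (289 to 324 TPM in the wild type libraries, 3.19 to 5.2 TPM in the mutant ones). HTR5 fell from 412 ± 9.97 to 295 ± 4.51 TPM and HTR4 from 321 ± 11 to 151 ± 3.29 TPM (SD, n = 3), so HTR4 RNA was still present. These values do not show whether that RNA encodes a protein, nor which HTR5 copy gave its reads. All 5 root markers were detected in all 6 libraries. Of 5 green tissue markers, all with fitted differences above 0, CAB3, a light-harvesting gene, and RCA, which encodes Rubisco activase, rose (limma adjusted p = 0.00134 and 0.0112). These are 2 of 5, against 3.7% of all tested genes called higher. With voom 4 of the 5 were called higher (RBCS1A, CAB1, CAB3 and RCA), against 5.22% of all tested genes. Groups did not overlap for 3 of the 5, all higher, against 10.8% of all tested genes. CAB3 averaged 6524 ± 311 and 8095 ± 221 TPM, and RCA 10710 ± 125 and 12020 ± 339 TPM. The CAB3 call did not hold when low genes were kept (limma adjusted p = 0.341). RCA lost its own in 5 settings (limma adjusted p = 0.0623 to 0.858), without h3.3ko;HTR5 replicate 1 or 3 among them, and after quantile normalization its difference was -0.07. Of 3 seed markers OLEO1 stayed at 0 to 0.41 TPM, and CRC had no read in wild type and 15, 0 and 44 reads in the h3.3ko;HTR5 libraries. CRA1, which encodes a seed storage protein, rose (limma adjusted p = 0.0292; 0.65 ± 0.24 TPM in wild type, 3.08 ± 1.74 TPM in h3.3ko;HTR5). That call did not hold with any 1 library left out other than h3.3ko;HTR5 replicate 2 (limma adjusted p = 0.0526 to 0.111), nor with no filter or no variance trend (0.192 and 0.0725). The 8 dividing-cell markers all had fitted differences below 0, that of KNOLLE at 0 after rounding. MCM3, which encodes a replication helicase, fell (limma adjusted p = 0.0242; 18.0 ± 0.76 TPM in wild type, 14.4 ± 0.49 TPM in h3.3ko;HTR5), and the other 7 did not pass the test. With voom 3 of the 8 passed (MCM2, MCM3 and MCM5), against 15.3% of all tested genes. Groups did not overlap for 5 of the 8, all lower, against 20.4% of all tested genes. The MCM3 call did not hold without replicate 2 or 3 of wild type or 1 or 3 of h3.3ko;HTR5 (limma adjusted p = 0.0697 to 0.081), nor with the replicate block (0.0533). The summed level of the 8 was 138.2 to 163.7 TPM in wild type and 127.9 to 133.4 TPM in h3.3ko;HTR5. The part of these marker differences in the values below was not tested. In bulk RNA from seedlings, fewer cells of a type and less RNA per cell cannot be told apart. Separate cultures are not named for the libraries, and the p-values therefore measure the spread between these samples only, which may be technical.

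None of the 44 genes passed the test of a difference between the genotypes. With limma on log2(TPM + 1), 0 of 44 passed an adjusted p of 0.05, while 12% of all 19013 tested genes did (2285 genes, 3.7% higher and 8.32% lower in h3.3ko;HTR5). Among the 13405 tested genes whose mean TPM lay in the range of the members, 3.68 to 56.9, the share was 10.3%. At an unadjusted p of 0.05 the count was 2 of 44 (BMI1A and SWN), against 26.8% of all tested genes. With voom on the recovered reads 1 of 44 passed (BMI1A), against 15.3%. The lowest adjusted p of the 44 in the limma test was 0.127.

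The values also bound how large a difference could be. The fitted log2 fold changes of the 44 ran from -0.1 (FLD and CHR17) to 0.25 (BMI1A), with a median of 0.03 and quartiles of -0.04 and 0.09. The same over all tested genes was a median of -0.03 with quartiles of -0.16 and 0.08. For all 44 genes the 95% interval of the difference lay inside a 1.5-fold change in either direction, and so did that of 81.2% of all tested genes and of 86.8% of those in the same range of levels. The lowest bound was -0.33 (RING1B) and the highest 0.52 (SWC6), both on the log2(TPM + 1) scale, which understates changes of low genes. With voom, which adds no pseudocount of this size, 43 of 44 intervals lay inside 1.5-fold, and that of SWC6 reached 0.63. All 44 lay inside a 2-fold change in each setting that tested all of them. Fitted differences within 0.15 on the log2 scale were found for 40 of 44 members (90.9%) and for 61.1% of the tested genes in the same range of levels. The SD of the fitted differences was 0.0888 over the members and 0.274 over those genes. These are counts side by side, and no test of the list was made.

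**Figure D1:**
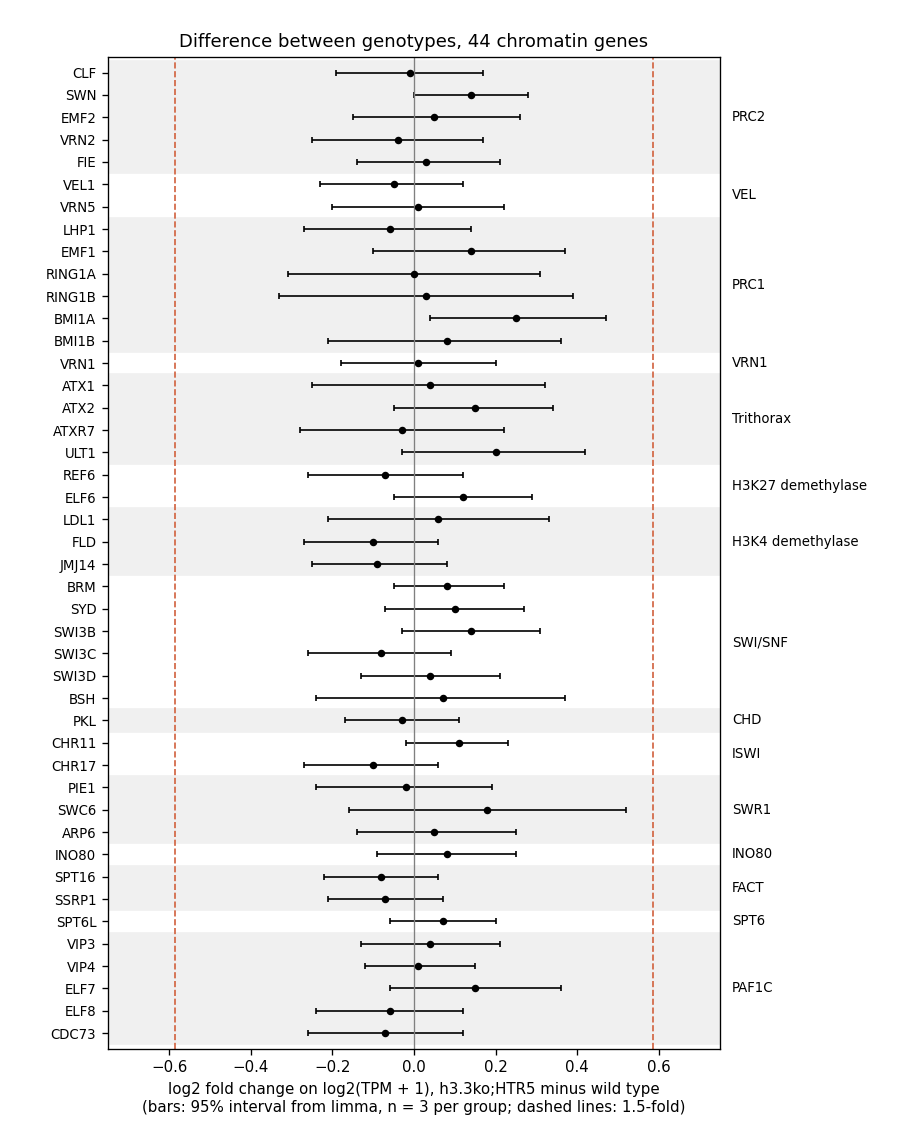
Log2 fold change of each of the 44 genes on the log2(TPM + 1) scale (x axis, h3.3ko;HTR5 minus wild type), with genes ordered by complex on the y axis; points are limma estimates, bars their 95% intervals (n = 3 libraries per group) and dashed lines a 1.5-fold change. Estimates run from -0.1 to 0.25, and no interval reaches a dashed line.

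**Figure D2:**
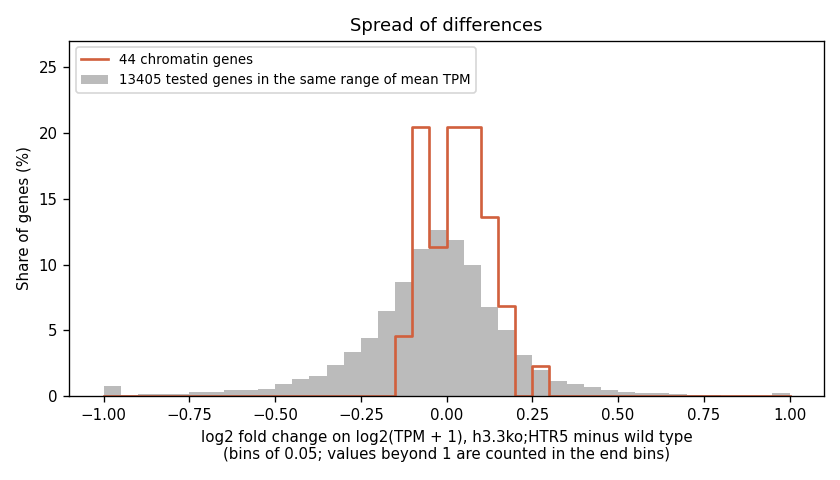
Share of genes (y axis, percent) in bins of the log2 fold change (x axis, h3.3ko;HTR5 minus wild type on log2(TPM + 1)) for the 44 chromatin genes (line) and for 13405 tested genes in the same range of mean TPM (bars). The line lies within 0.15 of 0 for 40 of 44 genes, and the bars for 61.1%.

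The 3 libraries of a genotype did not overlap those of the other for 8 of 44 genes, against 31.2% of all tested genes and 28.9% of those in the same range of levels. SWN, BMI1A, ATX2, ULT1, ELF6 and CHR11 were higher in each h3.3ko;HTR5 library (6 of 44, against 10.8%), and FLD and JMJ14 were lower (2 of 44, against 20.4%). None of the 8 passed the limma test. Wild type replicate 2 was the lowest of the 3 wild type libraries for 28 of the 44 genes, against 44.2% of tested genes in the same range of levels. Summed over the 44 genes it held 795 TPM, while the other 2 wild type libraries held 864 and 834 TPM and the h3.3ko;HTR5 libraries 827, 855 and 852 TPM. Without that library the median log2 fold change of the 44 was -0.01 in place of 0.03, and again 0 of 44 passed.

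**Figure D3:**
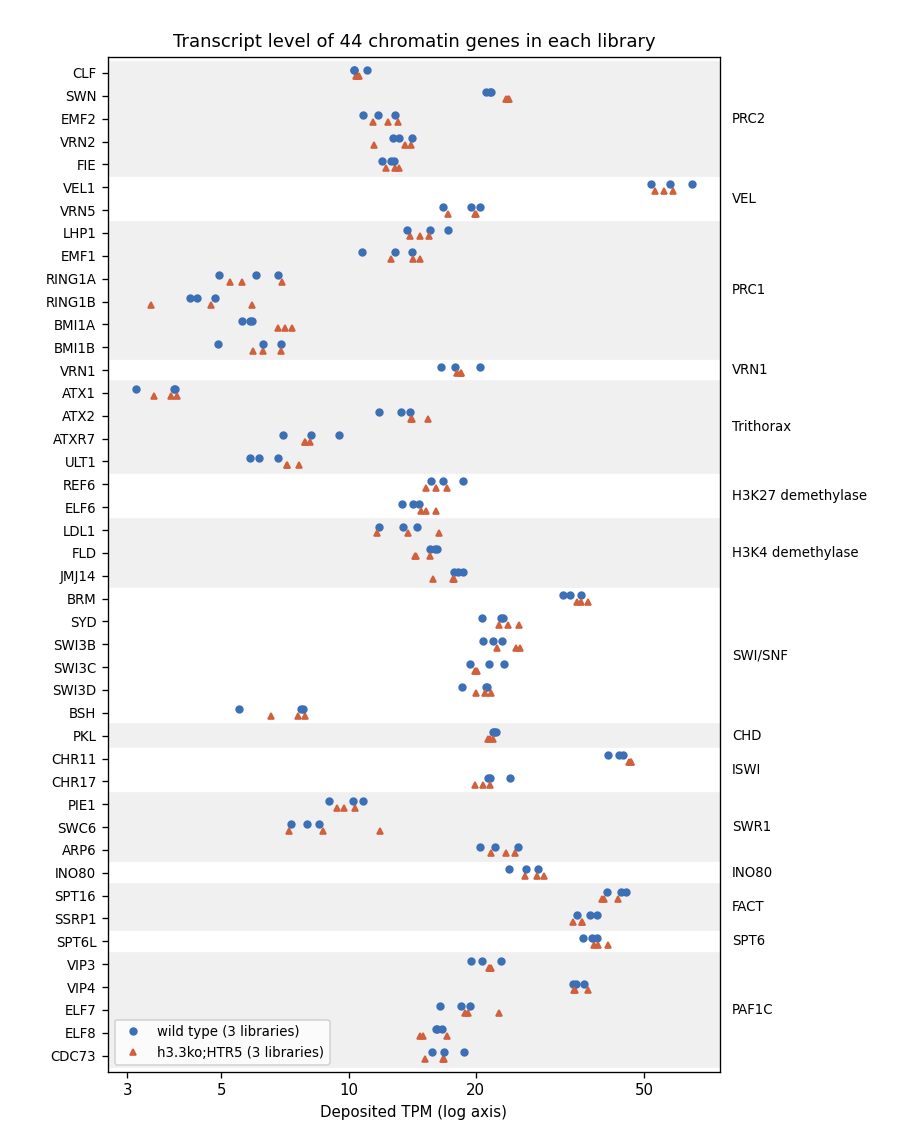
Deposited TPM (x axis, log scale) of each of the 44 genes (y axis, by complex) in every library, with circles for the 3 wild type and triangles for the 3 h3.3ko;HTR5 libraries. The genotypes lie on top of each other for most genes, and for 8 of 44 the groups do not overlap.

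Among PRC2 genes SWN came closest to a difference. CLF and SWN encode the alternative H3K27 methyltransferases of the vegetative complex. SWN (AT4G02020, chromosome 4, 886580 to 891987, plus strand, TAIR10.1) measured 21.6, 21.7 and 21.1 TPM across the wild type libraries and 23.8, 23.9 and 23.6 TPM across the h3.3ko;HTR5 libraries. The groups did not overlap and the replicates lay close together, with SDs of 0.33 and 0.13 TPM. The log2 fold change was 0.14 ± 0.06 SE (limma adjusted p = 0.176), and it passed in 1 alternative, with no filter on low values (limma adjusted p = 0.0378), where it was the only one of the 44 to pass, against 2.5% of all 27655 genes. CLF (AT2G23380, chromosome 2, 9955092 to 9960386, plus strand) measured 11.1, 10.3 and 10.3 TPM across the wild type libraries and 10.5, 10.4 and 10.6 TPM across the h3.3ko;HTR5 libraries (log2 fold change -0.01, 95% interval -0.19 to 0.17). Per exon length CLF RNA was 0.49, 0.45 and 0.46 times that of SWN in wild type and 0.42, 0.41 and 0.42 times in h3.3ko;HTR5, so the ratios did not overlap, by 0.16 on the log2 scale on the means.

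The other PRC2 subunits showed overlapping groups. EMF2 and VRN2 encode alternative zinc finger subunits, EMF2 active in keeping flowering off in seedlings and VRN2 in vernalization. EMF2 measured 12.9, 10.8 and 11.8 TPM across the wild type libraries and 12.4, 13.1 and 11.4 TPM across the h3.3ko;HTR5 libraries. VRN2 stood at 13.2, 12.8 and 14.2 TPM against 13.6, 14.1 and 11.5 TPM. Their ratio per exon length was close to 1 in both genotypes (1.01 in wild type, 1.09 in h3.3ko;HTR5). FIE, a WD40 subunit, stood at 12.5 ± 0.4 and 12.8 ± 0.46 TPM.

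VRN5 and VEL1, PHD proteins that join PRC2 at FLC during vernalization, were unequal. VEL1 measured 65.0, 51.8 and 57.5 TPM across the wild type libraries and 53.0, 55.6 and 58.4 TPM across the h3.3ko;HTR5 libraries. VRN5 measured 19.5, 16.7 and 20.5 TPM against 20.01, 19.9 and 17.2 TPM. VEL1 was the most abundant of the 44 per exon length, at 62.3 TPM, and VRN5 held 0.24 and 0.25 of its level in wild type and h3.3ko;HTR5. VRN1, a DNA-binding protein that acts in FLC silencing after cold, stood at 18.3 ± 1.97 and 18.3 ± 0.22 TPM. When 50-base exon windows were searched for elsewhere in the genome, VRN1 shared 6.59% of its own, the highest share among the 44.

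The 4 PRC1 genes of RING finger proteins were among the lowest of the set. BMI1A (also DRIP2, AT2G30580, chromosome 2, 13025911 to 13030661, plus strand) encodes a RING finger protein of the H2A ubiquitin ligase and had the largest fitted difference of all 44. It measured 5.6, 5.9 and 5.85 TPM across the wild type libraries and 6.82, 7.34 and 7.07 TPM across the h3.3ko;HTR5 libraries, with no overlap. The log2 fold change was 0.25 ± 0.1 SE (limma adjusted p = 0.127, and 0.0496 with voom). Over the 16 alternatives its adjusted p ran from 0.0496 to 0.262. BMI1B (also DRIP1), its close relative, stood at 6.92, 4.92 and 6.26 TPM against 5.93, 6.26 and 6.94 TPM. The ratio of BMI1A to BMI1B per exon length was 1.5 in wild type and 1.72 in h3.3ko;HTR5, with overlapping values.

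The upstream sequences of BMI1A and SWN are shown because these members came nearest to a call. Each line gives the 250 bases before the annotated start of the gene, 5′ to 3′ on the strand of the gene, from the RefSeq TAIR10.1 genome, and capitals mark matches to the site II letters (TGGGCC or TGGGCT on either strand).
BMI1A upstream, chr2:13025661-13025910: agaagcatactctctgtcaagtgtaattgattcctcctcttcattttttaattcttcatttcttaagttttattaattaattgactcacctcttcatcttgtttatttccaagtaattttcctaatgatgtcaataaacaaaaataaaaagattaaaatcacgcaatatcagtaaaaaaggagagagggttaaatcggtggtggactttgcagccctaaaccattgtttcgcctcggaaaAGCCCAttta
SWN upstream, chr4:886330-886579: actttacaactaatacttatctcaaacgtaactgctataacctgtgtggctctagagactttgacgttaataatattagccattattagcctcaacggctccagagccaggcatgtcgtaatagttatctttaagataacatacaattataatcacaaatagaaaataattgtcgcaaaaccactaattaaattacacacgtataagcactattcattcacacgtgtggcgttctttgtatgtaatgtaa
BMI1A holds 1 match, from base -10 to base -5 before the start, and SWN holds none. Their GC content is 32.4% and 33.6%.

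Site II letters, an element known from promoters of genes of growing tissue, were found within 250 bases upstream of 16 of the 44 genes (36.4%) and of 22.3% of 18923 tested protein-coding genes. The telobox (AAACCCTA, either strand), known in Arabidopsis as a PRC2 recruiting element, was in 0 of 44 windows and in 3.47% of all. A GAGA repeat (GAGAGAGA, either strand), known in the same role, was in 4 of 44 (FLD, REF6, SYD and VEL1) and in 4.51% of all. These are matches of letters within one window size, given as a description.

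RING1A and RING1B, the other RING finger subunits of PRC1, varied between libraries by more than the groups differed. RING1A measured 6.81, 4.94 and 6.04 TPM across the wild type libraries and 5.24, 5.6 and 6.98 TPM across the h3.3ko;HTR5 libraries. RING1B stood at 4.22, 4.38 and 4.83 TPM against 4.74, 3.41 and 5.91 TPM, and was the lowest of the 44 per exon length (4.28 TPM). RING1B had 70 to 116 reads per library, and 5.24% of its span overlaps TPX2 on the opposite strand. LHP1 (also TFL2), the chromodomain reader of H3K27 methylation, stood at 15.5 ± 1.71 and 14.7 ± 0.78 TPM. EMF1, a plant-specific partner of Polycomb, stood at 12.6 ± 1.67 and 13.9 ± 1.14 TPM.

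None of the 4 trithorax genes passed, though ATX2 and ULT1 were higher in each h3.3ko;HTR5 library. ATX1 and ATX2 encode related H3K4 methyltransferases. ATX2 (AT1G05830, chromosome 1, 1754130 to 1761909, plus strand) measured 13.99, 11.8 and 13.3 TPM across the wild type libraries and 14.1, 15.4 and 14.1 TPM across the h3.3ko;HTR5 libraries (limma log2 difference 0.15 ± 0.09 SE, adjusted p = 0.318). ATX1 stood at 3.89, 3.14 and 3.86 TPM against 3.47, 3.94 and 3.81 TPM. Per exon length ATX1 held 0.3 of the level of ATX2 in wild type and 0.28 in h3.3ko;HTR5. ULT1, a SAND-domain antagonist of Polycomb, stood at 6.81, 5.85 and 6.13 TPM against 7.16, 7.64 and 7.15 TPM (limma log2 difference 0.2 ± 0.1 SE, adjusted p = 0.245). ATXR7 (also SDG25), a methyltransferase needed for full FLC expression, stood at 8.2 ± 1.25 and 7.96 ± 0.14 TPM.

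Among demethylase genes the paralogs REF6 and ELF6 did not pass the test, and their ratio is given as a description. Both encode JmjC enzymes, and REF6 is the main H3K27 demethylase of the plant. REF6 measured 18.6, 15.7 and 16.7 TPM across the wild type libraries and 15.2, 17.1 and 16.1 TPM across the h3.3ko;HTR5 libraries. ELF6 stood at 14.7, 14.2 and 13.4 TPM against 14.9, 16.1 and 15.3 TPM, with no overlap (limma log2 difference 0.12 ± 0.08 SE, adjusted p = 0.354). The ratio of REF6 to ELF6 per exon length was 1.2, 1.04 and 1.17 in wild type and 0.97, 1.0 and 0.99 in h3.3ko;HTR5, a difference of -0.2 on the log2 scale without overlap.

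Among genes of H3K4 demethylation, FLD and JMJ14 had groups that did not overlap, and neither passed. FLD and LDL1 encode relatives of the human demethylase LSD1, and FLD is needed to keep FLC low. FLD measured 16.0, 16.2 and 15.6 TPM across the wild type libraries and 14.3, 14.5 and 15.6 TPM across the h3.3ko;HTR5 libraries, where the highest library lay just under the lowest wild type value (limma adjusted p = 0.425). JMJ14, an H3K4 demethylase gene that also acts in silencing, stood at 18.7, 17.8 and 18.2 TPM against 15.9, 17.7 and 17.8 TPM, again separated by a narrow gap (limma adjusted p = 0.505). LDL1, whose annotated gene has 1 exon, stood at 14.5, 11.8 and 13.5 TPM against 16.3, 13.8 and 11.7 TPM. The ratio of LDL1 to FLD per exon length was 0.75 and 0.85, with overlapping values.

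None of the 6 SWI/SNF genes passed. BRM and SYD encode ATPases that drive the complexes. BRM measured 35.4, 32.2 and 33.4 TPM across the wild type libraries and 34.8, 35.5 and 36.9 TPM across the h3.3ko;HTR5 libraries (log2 fold change 0.08, 95% interval -0.05 to 0.22). SYD stood at 23.0, 20.7 and 23.2 TPM against 22.7, 23.9 and 25.3 TPM (log2 fold change 0.1, 95% interval -0.07 to 0.27). These genes rest on 1938 to 2721 reads per library. Their ratio per exon length was 1.24 and 1.23. The core subunit gene SWI3C stood at 21.5, 19.4 and 23.3 TPM against 19.96, 20.1 and 20.04 TPM, and SWI3D at 21.3, 18.6 and 21.1 TPM against 21.8, 19.99 and 21.0 TPM. The SWI3C to SWI3D ratio was 1.25 in wild type and 1.14 in h3.3ko;HTR5, and the groups were separated only beyond the rounding, with 1.2 as the lowest wild type and the highest h3.3ko;HTR5 value.

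SWI3B, another core subunit gene, averaged 21.9 ± 1.12 and 24.3 ± 1.6 TPM (limma adjusted p = 0.266). BSH, the SNF5 homologue, averaged 7.01 ± 1.31 and 7.34 ± 0.69 TPM. PKL, the CHD3-type remodeler that keeps embryonic genes off after germination, had among the narrowest intervals. It measured 22.1, 22.3 and 22.0 TPM across the wild type libraries and 21.7, 21.4 and 22.0 TPM across the h3.3ko;HTR5 libraries (log2 fold change -0.03, 95% interval -0.17 to 0.11).

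The ISWI pair CHR11 and CHR17, ATPases that space nucleosomes over transcribed genes, did not pass the test, and their ratio is given as a description. CHR11 (AT3G06400, chromosome 3, 1940907 to 1946980, plus strand) measured 44.7, 41.1 and 43.6 TPM across the wild type libraries and 46.7, 46.5 and 46.0 TPM across the h3.3ko;HTR5 libraries, with no overlap (limma log2 difference 0.11 ± 0.06 SE, adjusted p = 0.256). CHR17 (AT5G18620, chromosome 5, 6195689 to 6202168, minus strand) stood at 21.6, 21.3 and 24.1 TPM against 19.9, 21.6 and 20.8 TPM, with overlap (limma log2 difference -0.1 ± 0.07 SE, adjusted p = 0.43). The ratio of CHR11 to CHR17 per exon length was 2.05, 1.91 and 1.79 in wild type and 2.33, 2.14 and 2.19 in h3.3ko;HTR5. The ratios did not overlap, and they differed by 0.21 on the log2 scale on the means (SDs of 0.1 and 0.06, n = 3 each). With any 1 library left out this difference lay between 0.17 and 0.26. The pair was picked as the one of 12 with the largest difference, so this range is a description. Neither gene shared a 50-base exon window with another place in the genome.

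The upstream sequences of the pair are shown because it was picked for the largest difference in ratio, in the same form as above.
CHR11 upstream, chr3:1940657-1940906: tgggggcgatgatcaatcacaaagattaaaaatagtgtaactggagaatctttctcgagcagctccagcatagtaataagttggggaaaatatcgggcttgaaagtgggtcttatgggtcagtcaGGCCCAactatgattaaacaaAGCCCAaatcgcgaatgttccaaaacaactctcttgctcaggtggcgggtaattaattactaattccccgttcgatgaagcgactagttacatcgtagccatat
CHR17 upstream, chr5:6202169-6202418: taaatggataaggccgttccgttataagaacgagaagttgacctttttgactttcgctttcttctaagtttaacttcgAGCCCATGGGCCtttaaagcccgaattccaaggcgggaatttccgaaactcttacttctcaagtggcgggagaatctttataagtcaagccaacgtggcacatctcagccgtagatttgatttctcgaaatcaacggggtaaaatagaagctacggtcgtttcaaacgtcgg
Each holds 2 site II matches. Those of CHR11 lie apart, the first from base -125 to base -120 and the second from base -104 to base -99. Those of CHR17 adjoin, from base -172 to base -167 and from base -166 to base -161.

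Of the 12 pairs of related subunits, 4 had ratios that did not overlap between genotypes (CLF to SWN, REF6 to ELF6, SWI3C to SWI3D and CHR11 to CHR17). Among single genes 31.2% of all tested did not overlap on deposited TPM. No such share was computed for ratios between genes, so the count of 4 of 12 is not read as a result about the pairs. The differences of these 4 on the log2 scale were -0.16, -0.2, -0.13 and 0.21. The smallest two-sided p that an exact permutation test of 3 against 3 libraries can give is above 0.05, so the ratios are given as a description.

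**Figure D4:**
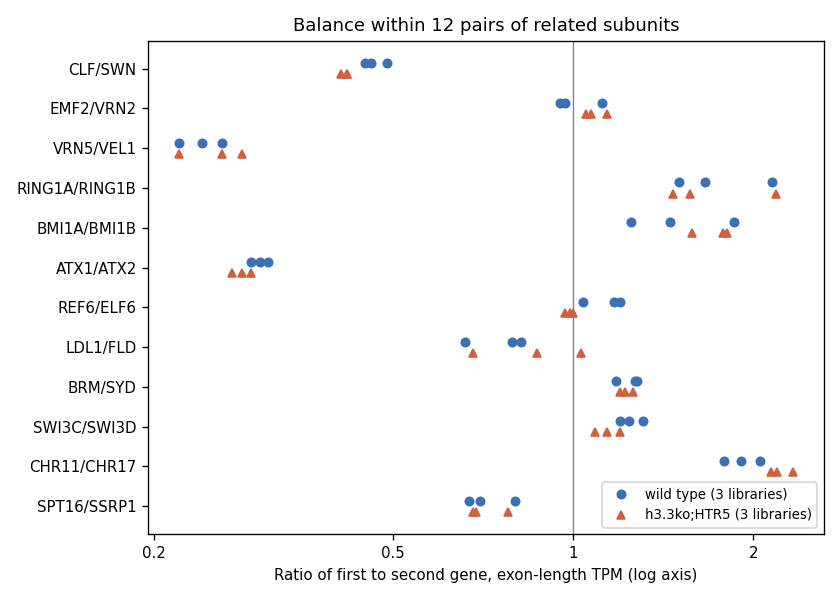
Ratio of the first to the second gene of each of 12 pairs (x axis, exon-length TPM, log scale) in every library, with circles for wild type and triangles for h3.3ko;HTR5 (3 libraries each). CHR11/CHR17 lies at 1.79 to 2.05 in wild type and 2.14 to 2.33 in h3.3ko;HTR5, and the genotypes overlap in 8 of the 12 pairs.

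No gene of the SWR1 and INO80 complexes, which exchange H2A.Z and slide nucleosomes, passed the test. PIE1, the SWR1 ATPase, stood at 10.0 ± 0.95 and 9.84 ± 0.5 TPM, and ARP6, an actin-related subunit, at 22.6 ± 2.4 and 23.4 ± 1.55 TPM. SWC6 (also SEF), a zinc finger subunit, measured 8.51, 7.98 and 7.3 TPM across the wild type libraries and 7.24, 11.9 and 8.72 TPM across the h3.3ko;HTR5 libraries. Its second h3.3ko;HTR5 library was the highest, and with 49 to 84 reads per library it was among the least certain of the 44 (log2 fold change 0.18, 95% interval -0.16 to 0.52). INO80 stood at 26.1 ± 2.06 and 27.7 ± 1.46 TPM.

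The FACT genes had fitted values below 0 and did not pass. SPT16 and SSRP1 encode the subunits of FACT, which loosens and rebuilds nucleosomes ahead of and behind the polymerase. SPT16 measured 44.1, 40.9 and 45.4 TPM across the wild type libraries and 40.2, 39.8 and 43.4 TPM across the h3.3ko;HTR5 libraries (log2 fold change -0.08, 95% interval -0.22 to 0.06, limma adjusted p = 0.482). SSRP1 stood at 38.7, 37.3 and 34.7 TPM against 35.7, 35.7 and 33.9 TPM (log2 fold change -0.07, 95% interval -0.21 to 0.07, limma adjusted p = 0.543). Summed deposited TPM of the pair was 82.8, 78.2 and 80.1 in wild type and 75.9, 75.5 and 77.4 in h3.3ko;HTR5, so the sums did not overlap. Each gene alone overlapped. Sums were formed for every group of the 44 genes, and only that of FACT did not overlap, so it was picked after the values were seen. Over all tested genes 31.2% did not overlap, and no such share was computed for sums, so this is a description. The ratio of SPT16 to SSRP1 per exon length was 0.72 and 0.71.

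SPT6L and the PAF1 complex, which carry histone chaperone activity and recruit histone modifiers during elongation, also gave no call. SPT6L (also GTB1) measured 38.6, 35.9 and 37.7 TPM across the wild type libraries and 38.8, 38.1 and 41.1 TPM across the h3.3ko;HTR5 libraries (log2 fold change 0.07, 95% interval -0.06 to 0.2). VIP4, the LEO1 homologue, stood at 36.0, 33.9 and 34.5 TPM against 34.3, 36.9 and 34.2 TPM (log2 fold change 0.01, 95% interval -0.12 to 0.15). ELF7, the PAF1 homologue, stood at 18.1 ± 1.48 and 20.3 ± 2.16 TPM, with the largest fitted difference of the complex (log2 fold change 0.15, limma adjusted p = 0.335). ELF8, the CTR9 homologue, stood at 16.3 ± 0.28 and 15.6 ± 1.27 TPM. VIP3, a WD40 subunit, stood at 21.0 ± 1.73 and 21.6 ± 0.15 TPM, and CDC73 at 17.1 ± 1.53 and 16.2 ± 0.91 TPM. The summed TPM of the 5 PAF1 complex genes was 107 ± 2.62 in wild type and 109 ± 3.57 in h3.3ko;HTR5.

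Levels between genes were compared per exon length, since the deposited TPM follows the full span of a gene and lowers genes with long introns. On that scale the order began with VEL1 (62.3 TPM over 6 libraries), CHR11 (57.3), VIP4 (47.7), SSRP1 (47.1) and SPT6L (42.1). VIP4 and SSRP1 were within their replicate spread of each other. It ended with ULT1 (6.27 TPM), BMI1B (6.08), ATX1 (5.56) and RING1B (4.28), so that 3 of the 5 lowest genes were PRC1 RING finger genes (RING1A at 7.38 TPM, BMI1B and RING1B). VEL1 ranked above 86.1% of 18920 tested genes and RING1B above 18%. PKL, with a span of 10300 bases and 4608 exonic bases, stood at 21.9 TPM as deposited and at 37.3 TPM per exon length. Whether intronic reads were counted is not known. If they were, levels per exon length are too high for genes with long introns, and this order and the ratios between genes carry that limit.

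The other genes of the same complexes gave no call with limma either. Of 51 listed, 43 were tested and 0 passed with limma, against 12% of all tested genes. At an unadjusted limma p of 0.05 there were 4, against 26.8%, and with voom 2 passed, against 15.3%. Groups did not overlap for 3 genes higher and 3 lower in h3.3ko;HTR5, against 10.8% and 20.4% of all tested genes. VAL1, a B3 protein that brings Polycomb to FLC, measured 18.4, 16.6 and 17.6 TPM across the wild type libraries and 21.1, 18.8 and 24.0 TPM across the h3.3ko;HTR5 libraries, with no overlap (limma adjusted p = 0.101, and 0.0211 with voom). ATX4, a trithorax methyltransferase gene, stood at 5.5, 4.98 and 4.78 TPM against 6.19, 6.82 and 6.37 TPM, also with no overlap (limma adjusted p = 0.105, and 0.0137 with voom). RBL went the other way without overlap, at 10.19, 11.84 and 11.66 TPM against 9.78, 7.62 and 9.65 TPM (limma adjusted p = 0.124). VAL2 was also higher without overlap, and JMJ18 and SWP73A were lower. MSI1, a PRC2 subunit outside the 44, stood at 34.4 and 33.2 TPM. The reproductive PRC2 genes MEA and FIS2 and the cold-induced VIN3 were at 0.1 TPM or less in every library.

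Target genes of these systems were also read, and those that passed the test were lower, as were 1582 of the 2285 calls over all genes. Of 19 known targets of Polycomb repression only 4 were high enough to be tested. Of these 2 fell, against 8.32% of all tested genes called lower, and no test of the list was made. FLC, named here because it is the best known shared target, measured 2.45, 2.32 and 2.53 TPM across the wild type libraries and 1.12, 1.22 and 1.18 TPM across the h3.3ko;HTR5 libraries (limma log2 difference -0.66 ± 0.15 SE, adjusted p = 0.0177). Its long first intron lowers the deposited value, and the call did not hold on leaving out the wild type library 2 or 3 or the third one of h3.3ko;HTR5 (limma adjusted p = 0.0518, 0.0585 and 0.0557). AGL24, a MADS-box promoter of flowering, fell too, with 2.94, 4.0 and 3.98 TPM across the wild type libraries and 1.16, 0.9 and 1.48 TPM across the others (limma log2 difference -1.09 ± 0.17 SE, adjusted p = 0.00297).

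KNAT1 and STM, homeobox genes of the shoot meristem, stood at 10.2 ± 0.26 and 8.4 ± 0.76 TPM and at 2.02 ± 0.34 and 2.18 ± 0.16 TPM, and did not pass. KNAT1 was lower in each h3.3ko;HTR5 library (limma adjusted p = 0.1065), as were 20.4% of all tested genes. Among targets too low for the test, AGL19, a floral promoter, measured 1.41, 1.52 and 1.34 TPM across the wild type libraries and 0.3, 0.69 and 0.23 TPM across the h3.3ko;HTR5 libraries, with 113 and 33 reads over the 3 libraries (limma adjusted p = 0.0623 with no filter on low values). PI, a petal and stamen gene, had 37 and 9 reads (limma adjusted p = 0.0629 with no filter). KNAT2 went the other way, with 54 and 84 reads and more TPM in each h3.3ko;HTR5 library (limma adjusted p = 0.3374 with no filter). The embryonic genes LEC1, LEC2 and FUS3 had 0, 3 and 3 reads in wild type and 0, 7 and 0 in h3.3ko;HTR5, at or near the limit of detection. In the FLC clade, whose members depend on the PAF1 and SWR1 complexes, MAF4 fell, with 2.54, 2.37 and 1.99 TPM in wild type and 0.97, 1.32 and 1.15 TPM in h3.3ko;HTR5 (limma adjusted p = 0.0326, a call lost without any 1 library other than h3.3ko;HTR5 replicate 2, where the adjusted p reached 0.0505 to 0.0981). The call was lost as well with no filter, after quantile normalization and with the replicate block (limma adjusted p = 0.054, 0.0632 and 0.0631). MAF1, MAF2 and MAF3 did not pass. Of the 5 clade genes tested, 2 were called lower (FLC and MAF4), against 8.32% of all tested genes. Per exon length AGL19 and MAF5 reached the testing filter and passed as well (limma adjusted p = 0.00242 and 0.00275). As deposited, MAF5 had 100 reads in wild type and 36 in h3.3ko;HTR5 and passed with no filter on low values (limma adjusted p = 0.0436).

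**Figure D5:**
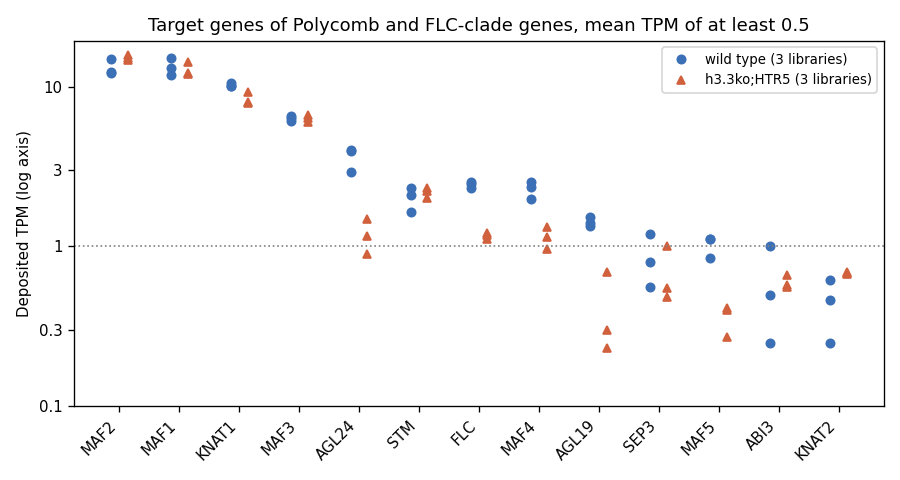
Deposited TPM (y axis, log scale) of target genes and FLC-clade genes averaging 0.5 TPM or more (x axis) in every library, with circles for wild type and triangles for h3.3ko;HTR5 (3 libraries each) and a dotted line at the testing filter of 1 TPM. FLC, AGL24, MAF4, AGL19, KNAT1 and MAF5 are lower in each h3.3ko;HTR5 library, and KNAT2 is higher in each. Over all tested genes 20.4% were lower without overlap and 10.8% higher. The groups overlap for MAF1, MAF2, MAF3, STM, SEP3 and ABI3.

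The strand setting of the counting is unknown, so where genes overlap, their reads may be mixed. The span of 17 of the 44 genes overlaps another gene of the table, by at most 5.24% of the member. The case of VIP3 is larger, since 35.4% of its span lies under a long non-coding RNA annotated on the opposite strand. Only VRN1, SYD (1.13%) and SPT16 (0.434%) had 50-base exon windows that recur elsewhere.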

How the data were processed

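Seedling RNA of 6 samples was sequenced with a library kit whose name gives no strand, per the labels' protocols. The tools fastp 0.20.1, HISAT2 2.1.10 and DESeq2 1.26.0 are listed by the submitters' processing notes, with the TAIR10 build. How reads were assigned to genes, and with which strand setting, is not given there. TPM values were deposited by the authors, each library summing to 1000000. Of 27655 identifiers 99.2% matched the RefSeq TAIR10.1 annotation, whose coordinates are printed. With the gene span as length, 99.98% of 22985 expressed genes gave whole reads in all 6 libraries (tolerance 0.02 reads), and these reads gave voom and exon-length TPM.

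The test was limma 3.58.1 under R 4.3.3, run on log2(TPM + 1) of 19013 genes whose mean TPM reached 1, with a trend in the variance prior, two-sided, Benjamini-Hochberg adjusted over all of them at 0.05. Values are mean ± SD over 3 libraries. Members and lists were chosen with earlier results of these data known. Values in every library are given for members passing in any setting and for 12 fixed pairs, and other genes named after their values were seen are those nearest to a call, those whose groups do not overlap and examples of their list. Alternatives covered pseudocount, filters, scaling, exon length, voom, the variance prior, a replicate block and leaving out each library.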

Additional observations from a re-analysis of the deposited data

How the results depend on the processing

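Of the 16 alternatives, 14 called 0 of the 44 genes. With no filter on low values 1 passed (SWN), and with voom 1 passed (BMI1A). The sign of the fitted difference held in all settings for 24 of the 44 and changed in at least 1 for 20. Over all genes the count was 2285, 691 with no filter, 1443 with no trend in the variance prior and 1289 to 2084 with 1 library left out, with 1469 when wild type replicate 2 and 1289 when h3.3ko;HTR5 replicate 3 was the one omitted. Of the genes called, 703 of 2285 were higher as deposited, 1012 of 2182 after quantile normalization and 941 of 2199 after median-of-ratios scaling. These scalings put the median of all log2 differences at -0.034, 0.014 and 0.002. Of the other subunits 1 passed after quantile normalization (ATX4), 2 with voom and 0 to 1 with a library left out. The target and FLC-clade lists gave 3 calls, 5 with exon-length TPM (more genes pass the filter there) and 1 to 3 with a library left out. With a mean TPM of at least 5 the count was 0 of 4 tested, as FLC, AGL24 and MAF4 lay below that filter. The marker lists, counted with the altered H3.3 genes HTR4, HTR5 and HTR8, gave 7 calls (these 3, CAB3, RCA, CRA1 and MCM3), 4 with no filter (these 3 and MCM3), 11 with voom and 4 to 7 with a library left out. The interval of SWC6 reached past 1.5-fold in 6 alternatives. Otherwise the cause was not tested. With a replicate block the count over all genes was 1851 and that over the members 0. The numbers do not pair the samples (correlations of deviations -0.043, 0.024 and -0.012, and not every library correlated best with its own number). Low read numbers limit SWC6, RING1B and the targets.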
